A study of Sus scrofa domesticus with 4 samples.

Results

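KIT is the receptor tyrosine kinase for stem cell factor, and KITLG encodes that ligand. The pair was followed in the anterior pituitary of early pregnant and cyclic pigs through every probe whose RefSeq accession maps to either gene, which gave 3 probes for KIT and 1 for KITLG among 43603 probes, and 2 of the 3029 genes that carry a symbol on the array. Each of 4 two-colour Agilent porcine arrays carried labelled cRNA of 1 pregnant and 1 cyclic gilt, a gilt being a young female pig, so that 4 animals per group were compared in 4 pairs. The pregnant gilts had been mated naturally and were collected on days 15 to 16 of pregnancy with conceptuses present, and the cyclic gilts on days 15 to 16 of the estrous cycle. All 8 animals were Large White x Polish Landrace, and the tissue was the whole anterior lobe with all its cell types. In such RNA, more cells of a type and more RNA per cell cannot be told apart.

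Stem cell factor exists as a membrane-bound and a shed form. Its binding pairs up KIT molecules, whose kinase domains then phosphorylate each other and recruit adaptors that switch on the RAS to ERK, PI3K to AKT, SRC family and JAK to STAT routes, while phosphatases, ubiquitin ligases and DOK and SOCS proteins restrain the signal. KIT is best known from germ cells, melanocytes, mast cells and blood-forming cells. In pigs the gene also underlies the dominant white coat of breeds such as Large White and Landrace, which carry duplicated KIT copies. The copy number of the animals was not analysed here.

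KIT was taken up because its brightest probe had 1 sign on all 4 arrays and one of the lower unadjusted p-values in the same pregnant against cyclic contrast. Its ratios are therefore a description and carry no test. No probe passed the adjusted threshold in that contrast, with 0 of 25138 (0.00%) by limma at a Benjamini-Hochberg adjusted p under 0.05 and 2012 (8.00%) at an unadjusted p under 0.05. Limma's fit to the separate channels called 4, and without array 1 the fit called 7. The count at an unadjusted p under 0.05 was 918, 958 and 3235 without arrays 1, 2 and 4. By the samples' label fields the dyes alternated: arrays 1 and 3 had the pregnant animal in Cy3, while arrays 2 and 4 had it in Cy5. The text of the labelling protocol gives 1 orientation throughout. The label fields were followed, and they set the sign of the ratios on arrays 2 and 4.

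In the gland KIT was measured far above background and KITLG was not. All 3 KIT probes were well above background in 8 of 8 channels, and none was saturated. The probe A_72_P165111 had a median intensity between 865 and 3551.5 over the 8 channels, 25.7 to 96.0 times its local background. For A_72_P441559 the intensities ran from 432 to 2139.5, 15.2 to 48.6 times background. The probe A_72_P180731 was much nearer to background, with 112.5 to 213, or 3.39 to 5.92 times. Intensity also depends on the probe itself, so the differing brightness of the 3 probes is not read as differing levels of KIT.

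The KIT level of single channels spread less among the pregnant than among the cyclic animals. These levels still hold any dye effect of the probe and differences between arrays, so their spread is not read as a trait of either group. For A_72_P165111 the normalized log2 intensity was 11.32, 11.27, 11.38 and 11.06 in the pregnant animals of arrays 1 to 4. In the cyclic animals of the same arrays it was 11.12, 10.03, 11.28 and 10.31. The groups averaged 11.26 ± 0.14 in pregnant and 10.69 ± 0.61 in cyclic gilts (SD, n = 4 each), and their ranges overlapped because the cyclic animals of arrays 1 and 3 lay within the pregnant range.

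The other bright probe had the same layout. A_72_P441559 gave 10.58, 10.25, 10.25 and 10.15 in the pregnant animals of arrays 1 to 4, against 10.38, 9.15, 10.33 and 9.28 in the cyclic animals. Its group means were 10.31 ± 0.19 in pregnant and 9.79 ± 0.66 in cyclic gilts (SD, n = 4 each). The cyclic animals of arrays 2 and 4 were again the low ones, and the other cyclic animals were level with the pregnant group. On the dim probe A_72_P180731 the pregnant animals stood at 7.41, 7.33, 7.49 and 7.35 and the cyclic animals at 7.24, 6.84, 7.36 and 7.15. The cyclic animals had the same order here as on A_72_P165111, with means of 7.39 ± 0.07 in pregnant and 7.15 ± 0.22 in cyclic gilts (SD, n = 4 each).

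**Figure D1:**
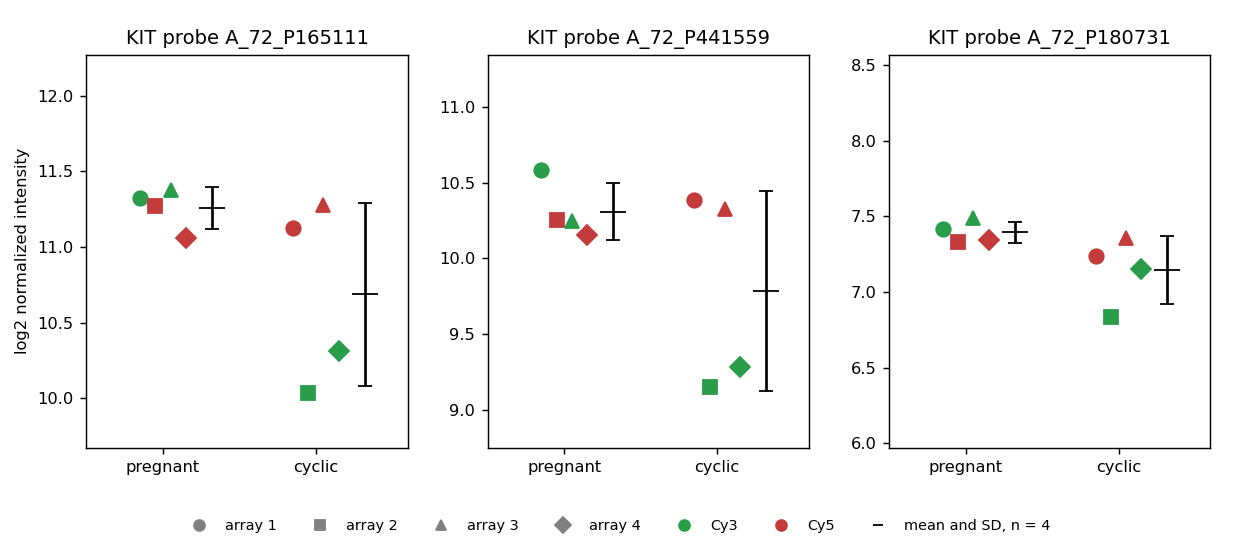
Normalized log2 intensity of the 3 KIT probes in each animal, pregnant left and cyclic right, with the array as the marker shape, the dye as the colour, and the mean with SD (n = 4) beside the points. On the brightest probe the pregnant animals sit between 11.06 and 11.38, while the cyclic animals labelled with Cy3 sit at 10.03 and 10.31 and those labelled with Cy5 at 11.12 and 11.28.

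The low cyclic animals were those labelled with Cy3, so the difference between the groups was also read within each dye, a reading added after the values were seen. Among the Cy3 channels A_72_P165111 averaged 11.35 in 2 pregnant and 10.17 in 2 cyclic animals, a difference of 1.18, and the lowest pregnant value exceeded the highest cyclic one by 1.01. Among the Cy5 channels it averaged 11.17 in pregnant and 11.20 in cyclic animals, a difference of -0.034, and the animals overlapped. A_72_P441559 differed by 1.20 within Cy3 and by -0.15 within Cy5, and A_72_P180731 by 0.46 and 0.039. On all 3 probes the difference was larger within Cy3 than within Cy5. Each of these differences sets arrays 1 and 3 against arrays 2 and 4, so it also holds the difference between those arrays. That part enters with opposite signs in Cy3 and Cy5, so neither dye is read as carrying the group difference. With 2 animals per group in each dye no test was made. The mean of both channels, before scaling between arrays, was 11.33 and 11.18 for A_72_P165111 on arrays 1 and 3 and 10.72 and 10.63 on arrays 2 and 4.

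Within arrays, where the dyes and animals meet on 1 spot, the log2 ratio of pregnant over cyclic was 0.20, 1.24, 0.10 and 0.75 on arrays 1 to 4 for A_72_P165111. A_72_P441559 gave 0.20, 1.11, -0.08 and 0.87, and A_72_P180731 gave 0.17, 0.49, 0.13 and 0.19. Arrays 2 and 4 had the larger ratios on every probe. Of the 3 probes 2 were above 0 on 4 of 4 arrays, as were 6.81% of the probes tested, and A_72_P441559 was above 0 on 3. Since KIT was chosen on this contrast, nothing is read from that count.

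Read against all probes of the same array, the ratio of A_72_P165111 exceeded 99.4% of them on array 2 and 98.4% on array 4. On arrays 1 and 3 it exceeded 75.1% and 68.3%. A_72_P441559 exceeded 99.07% and 99.03% on arrays 2 and 4, and 74.7% and 39.8% on arrays 1 and 3. A_72_P180731 exceeded 89.4% and 77.6% on arrays 2 and 4, and 72.5% and 72.4% on arrays 1 and 3. The bright probes were thus in the upper tail of the ratios on the arrays with pregnant RNA in Cy5. On array 3 A_72_P441559 lay below the middle, and the dim probe was outside the upper tail on every array.

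The fit over 4 arrays, which estimates the group ratio beside a dye effect of each probe, placed A_72_P165111 at 0.57 ± 0.12 (SE), a 1.49-fold higher level in pregnant glands. A_72_P441559 stood at 0.52 ± 0.11, or 1.44-fold, and A_72_P180731 at 0.25 ± 0.11, or 1.19-fold. The standard error is what remains after the dye effect, and for the bright probes it was small beside the SD between the 4 arrays, 0.53 for A_72_P165111 and 0.56 for A_72_P441559. The dye effect, red over green, was 0.42 for A_72_P165111, 0.46 for A_72_P441559 and 0.095 for A_72_P180731. Split by orientation, the mean ratio of A_72_P165111 was 0.15 on the arrays with pregnant RNA in Cy3 and 0.99 on those with pregnant RNA in Cy5, and for A_72_P441559 these means were 0.059 and 0.99. The bright probes thus lay closer within an orientation than across them. The dim probe did not: its means were 0.15 with pregnant RNA in Cy3 and 0.34 with pregnant RNA in Cy5, while its arrays with pregnant RNA in Cy5 lay 0.30 apart.

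The median spot-to-spot error was smaller than the spread between arrays of the bright KIT probes. The 21 tested probes that are spotted 5 times each had a median SD of the log2 ratio between 0.080 and 0.13 on the 4 arrays. Their largest SD was 0.21 to 0.22. That exceeded the SD between arrays of the dim probe A_72_P180731, 0.17. The bright KIT probes differed from each other by at most 0.18 on any array and had a correlation of 0.97 across the 4 ratios, a description, since the probes share the same RNA and arrays. The dim probe departed from A_72_P165111 by up to 0.74, on array 2, where it had the smaller ratio. The background offset of 50 draws the ratios of dim spots towards 0, and with an offset of 10 the dim probe stood at 0.35 ± 0.14. On the median probe the SD between the 4 arrays was 0.27.

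Turning arrays 2 and 4 to the single orientation of the protocol text reversed KIT, to -0.42, -0.46 and -0.095 on A_72_P165111, A_72_P441559 and A_72_P180731. In that reading group and dye cannot be told apart. With background parameters estimated from all spots, outlier spots included, the estimates were 0.26, 0.13 and 0.063 in the same order. The authors' deposited table gives 0.20, 1.36, 0.054 and 0.83 for A_72_P165111 on arrays 1 to 4. For A_72_P441559 the authors' deposited table gives 0.32, 1.18, -0.0071 and 0.86, and for A_72_P180731 -0.040, 1.06, 0.24 and 0.60, so there A_72_P165111 alone was above 0 on every array. The values of the authors' deposited table for all 43553 probes spotted once were the scanner's processed ratios turned by the label fields.

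**Figure D2:**
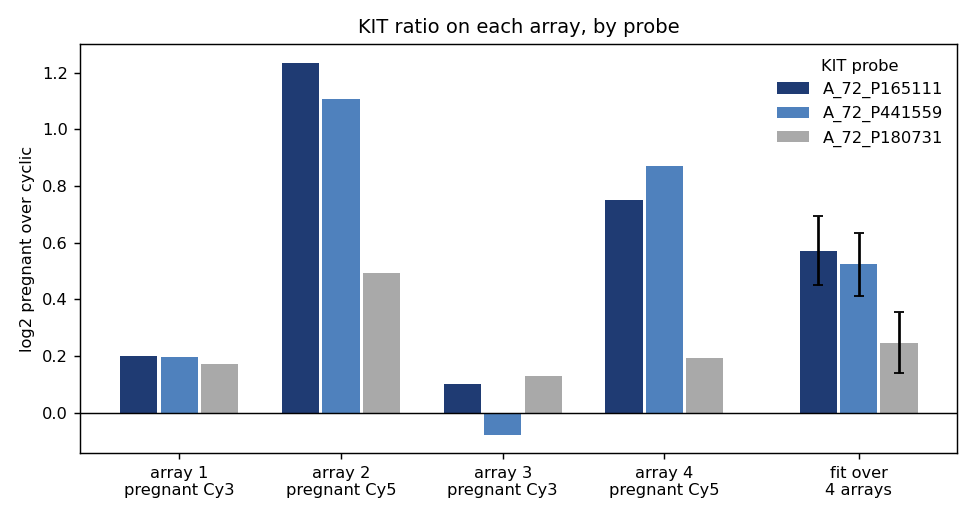
Log2 ratio of pregnant over cyclic for the 3 KIT probes on each array, with the dye of the pregnant animal below it, and at the right the fit over 4 arrays with its standard error. The bright probes lie between 0.75 and 1.24 on arrays 2 and 4 and between -0.08 and 0.20 on arrays 1 and 3.

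**Figure D3:**
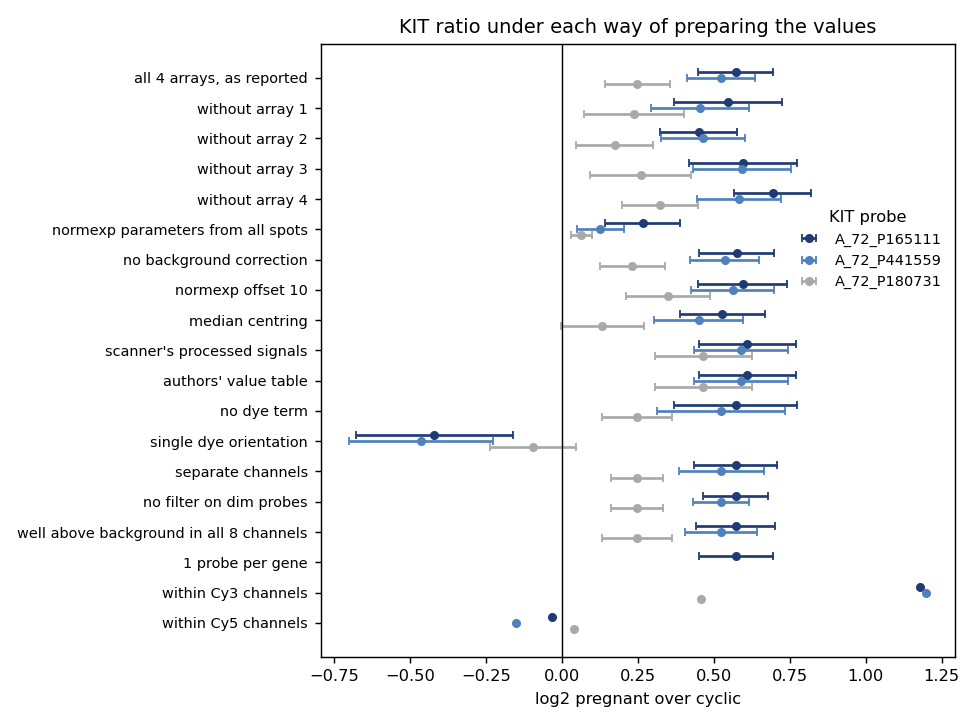
Log2 ratio of pregnant over cyclic for the 3 KIT probes under each way of preparing the values, with the standard error where the value is fitted. The estimates lie above 0 except with a single dye orientation, at -0.42 for the brightest probe, and within the Cy5 channels, where the bright probes are at -0.034 and -0.15.

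KITLG, the ligand, was not measured above background by its 1 probe. A_72_P146791 was well above background in 0 of 8 channels. Its spot intensity was 55, 41, 63 and 51 in the pregnant animals of arrays 1 to 4, over local backgrounds of 29, 30, 36 and 33. In the cyclic animals it was 59.5, 63, 48.5 and 67.5, over backgrounds of 39, 35, 35 and 39. The spot was 1.37 to 1.90 times its background throughout, and on each of arrays 2 to 4 the animal labelled with Cy3 had the brighter spot, whichever group it came from.

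A weaker mark of the scanner software, a signal significantly above background, was given to KITLG in 1 channel, the cyclic animal of array 1. The scanner's processed signal was 9.47, 5.07, 5.33 and 4.42 in the pregnant animals and 5.07, 5.50, 4.59 and 5.45 in the cyclic animals. The lowest processed signal of any probe well above background was between 15.9 and 40.8 in the pregnant channels and between 12.1 and 20.9 in the cyclic channels, above the KITLG value in each channel. No ratio is given for KITLG, since both groups lay below that limit, and a difference in the ligand was not detectable at this signal.

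**Figure D4:**
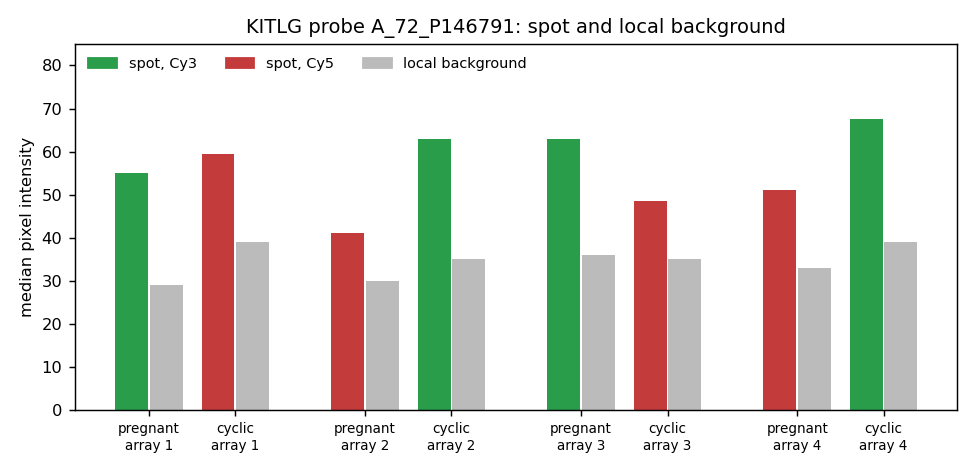
Median pixel intensity of the KITLG spot (coloured by dye) and of its local background (grey) for the pregnant and the cyclic animal of each array. Spots range from 41 to 67.5 over backgrounds of 29 to 39, in both groups.

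Genes around the receptor were asked in the same contrast, from lists of KIT signalling, its restraint, the shedding of receptor and ligand, and KIT transcription. Of 85 listed genes 23 carried a symbol on the array, and all 23 passed the filter on dim probes. No member passed limma's adjusted threshold (0 of 23). At an unadjusted p under 0.05 there were 0 higher and 1 lower in pregnant glands, beside 3.43% and 4.57% of all probes tested. Over all probes that was 862 higher and 1150 lower, a split that moved to 354 higher and 1314 lower with median centring and to 570 higher and 388 lower without array 2. With so few members these shares are near the background. The median estimate of the 23 genes was 0.0011, beside -0.0096 over all probes tested, and 12 of 23 were above 0, beside 47.6% of all probes. The list of KIT's sister receptors and their ligands, such as PDGFRA, CSF1R and FLT3, had 0 of 11 members with a symbol here.

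Signal transducers were the largest measured group, with 11 of 40 listed genes, 6 with an estimate above 0 and 5 below and a median of 0.047. AKT1, the kinase that acts below PI3K, had ratios of -0.19, -1.03, -0.15 and -0.23 and stood at -0.40 ± 0.15, with an unadjusted p of 0.0441 and an adjusted p of 0.605 by limma. Array 2 was the farthest from 0, and without it the estimate was -0.20 (unadjusted p = 0.176 by limma). Without array 1 its unadjusted p was 0.108 by limma and without array 3 it was 0.0960, so of the fits that leave out 1 array, the call at 0.05 held in the one without array 4. With a single dye orientation AKT1 stood at 0.23.

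The other transducers had estimates within 0.20 of 0. GRB2, the adaptor that couples KIT to RAS, stood at -0.13 ± 0.12, CRK at 0.083 ± 0.14 and GRB10 at -0.015 ± 0.14. FYN, a SRC family kinase, stood at -0.092 ± 0.13, from single arrays of 0.55, -0.93, 0.37 and -0.36 that alternated in sign with the dye. On the RAS to ERK route NRAS stood at -0.15 ± 0.12 and MAP2K1, the kinase MEK1, at 0.20 ± 0.12, a sign shared by all 4 of its further probes. JAK2 stood at 0.16 ± 0.11 and STAT3 at 0.078 ± 0.12, while STAT5A and STAT5B, which carry cytokine and growth factor signals, stood at 0.053 ± 0.10 and 0.047 ± 0.14. STAT3 shared its sign with 1 of 3 further probes and STAT5B with 0 of 1. GRB2, CRK, GRB10 and JAK2 shared theirs with every further probe. None of these 10 genes had an unadjusted p under 0.05, so no change was shown for them.

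Of the genes that restrain the signal, 4 of 17 were measured, with 3 estimates above 0 and 1 below, and none had an unadjusted p under 0.05. DUSP6, the phosphatase that ERK signalling induces and that inactivates ERK, stood at -0.28 ± 0.12, with -0.45, -0.12, -0.076 and -0.48 on arrays 1 to 4. It was below 0 on every array, as were 7.75% of the probes tested, but its unadjusted p of 0.0690 by limma missed the threshold. It was 0.0285 with separate channels and 0.0486 without the filter on dim probes. SOCS6, which binds KIT and promotes its breakdown, stood at 0.069 ± 0.12, and array 4 alone was at 0.43. DOK1 and DOK2, docking proteins that dampen RAS signalling, stood at 0.094 ± 0.20 and 0.057 ± 0.12. The sign was shared by 1 of 1 further probe of DOK1 and 1 of 2 of DOK2.

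Shedding of receptor and ligand was covered by 5 of 6 listed genes, 1 with an estimate above 0 and 4 below, none at an unadjusted p under 0.05. ADAM17, the protease that releases KIT from the cell surface, stood at 0.16 ± 0.11, with array 4 at -0.25 and the other arrays between 0.11 and 0.48. Of its 2 further probes 1 shared the sign. ADAM10 stood at -0.0028 ± 0.10. MMP9, which frees stem cell factor in bone marrow, stood at -0.13 ± 0.11 and MMP2, a gelatinase, at -0.17 ± 0.10. MMP2 was below 0 on 4 of 4 arrays. TIMP1, the inhibitor of such enzymes, stood at -0.059 ± 0.15.

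Among factors that act on KIT transcription, 3 of 11 were measured and none had an unadjusted p under 0.05. GATA2, which binds the KIT locus in blood-forming cells, stood at -0.65 ± 0.27, but array 1 was at -1.93 and the other arrays between -0.23 and -0.22. Without array 1 it was -0.22, and without array 3 it was -1.08 with an unadjusted p of 4.14e-04 by limma, the one setting among those that leave out an array in which it was below 0.05. With median centring its unadjusted p was 0.0246 by limma. GATA2 was well above background in 3 of the pregnant animals and 4 of the cyclic ones. MITF, the melanocyte and mast cell factor, stood at 0.043 ± 0.10, while its 2 further probes were below 0. MYC stood at 0.0011 ± 0.12, from -0.53, 0.22, -0.31 and 0.62 on arrays 1 to 4, and 1 of its 2 further probes shared the sign.

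**Figure D5:**
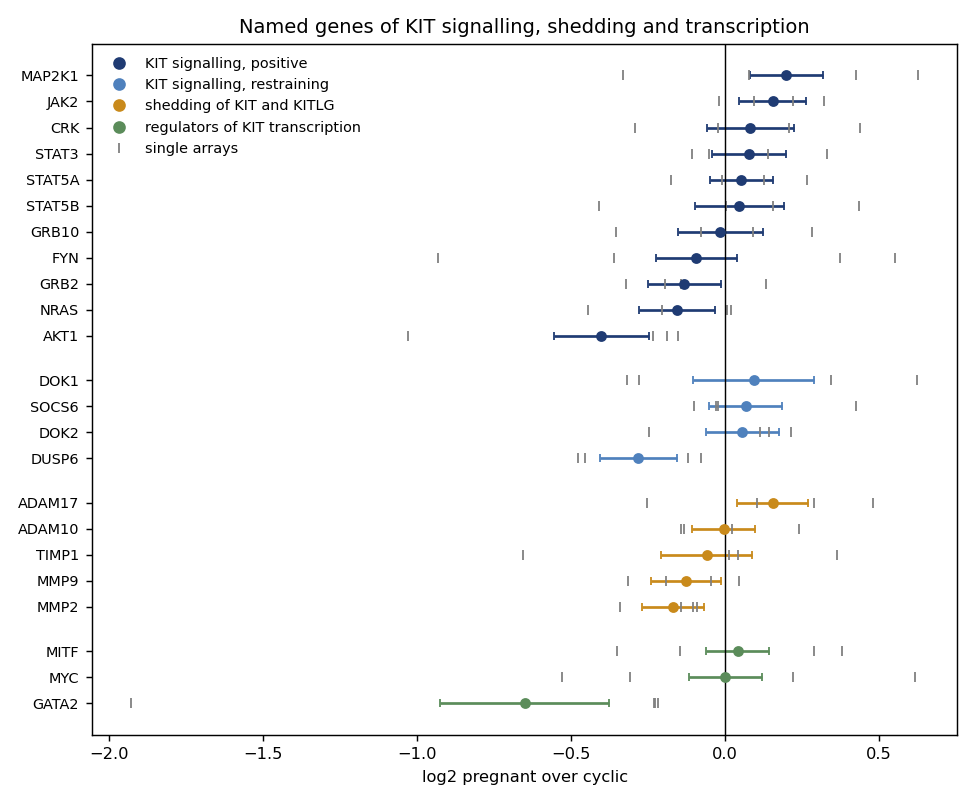
Log2 ratio of pregnant over cyclic for the 23 measured genes around KIT, as the estimate with its standard error (coloured by list) and the 4 single arrays (grey ticks). AKT1 at -0.40 is the member at an unadjusted p under 0.05, and GATA2 has 1 array at -1.93.

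Genes whose level ran most like KIT over the 8 channels were picked by Pearson correlation with A_72_P165111 among 2405 other named genes, as a description. The channels share arrays and dyes, and the dye is part of the pattern. The highest were SLC1A3, a glutamate transporter of glial cells, at r = 0.95, ZAN, zonadhesin, at 0.92, SIX4, a homeobox factor, at 0.92, RND3 at 0.85, and WHAMM, an actin nucleation factor, at 0.84. Of these RND3 had an estimate close to that of KIT, at 0.56 ± 0.16, while SLC1A3 stood at 0.097 ± 0.10. The lowest were ARPC2, a subunit of the Arp2/3 actin complex, at -0.95, CREB3 at -0.92 and CA11 at -0.91.

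Markers of the cell types known for KIT gave a partial view. For mast cells 2 of 15 listed genes had a symbol here, and of these FCER1G, which macrophages also express, was above background in 8 channels and MS4A2, the more specific marker, in 0 of 8. Of 7 melanocyte genes with a symbol, TYRP1 and MITF were above background in 8 channels, DCT and OCA2 in 6, EDNRB in 3, and TYR and SOX10 in 0. By the brightest probe of each, all 4 tested melanocyte genes had an estimate above 0, beside 47.6% of all probes tested. Of these genes 0 had an unadjusted p under 0.05. The 2 further probes of MITF were below 0, and the 1 further probe of OCA2 was above 0. TYRP1 stood at 0.37 ± 0.31, OCA2 at 0.33 ± 0.15, DCT at 0.049 ± 0.10 and MITF at 0.043 ± 0.10. TYRP1 was above 0 on 2 arrays and OCA2 on 3. The summed normalized intensity of these 4 genes ran from 1795 to 2036 in pregnant and from 1270 to 2275 in cyclic animals. That of FCER1G ran from 634 to 1072 in pregnant and from 607 to 878 in cyclic animals. Of 6 blood progenitor and leukocyte genes 4 had a symbol, with CD34 and ENG, which endothelium also expresses, above background in 8 channels, THY1 in 7 and SPI1, a factor of myeloid cells, in 0. ENG stood at -0.40 ± 0.17 and was below 0 on 4 of 4 arrays (unadjusted p = 0.0592 by limma). THY1 stood at -0.18 ± 0.14 and CD34 at 0.027 ± 0.10, while the further tested probe of CD34 was below 0. The summed intensity of these 3 genes ran from 1682 to 1813 in pregnant and from 1515 to 2362 in cyclic animals.

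Vessels and the other lobes of the pituitary were read in the same way. Of 8 listed endothelial genes 4 had a symbol here. These genes, VWF, CDH5, CLDN5 and PECAM1, were above background in all 8 channels. They had 1 estimate above 0 and 3 below, beside 47.6% of all probes above 0. None had an unadjusted p under 0.05, beside 8.00% of all probes tested. CDH5 was the gene above 0, at 0.51 ± 0.25, and its 1 further probe was below 0. The sum of the 4 genes ran from 4244 to 5667 in pregnant and from 4198 to 7377 in cyclic animals. For each of these marker sums the range in pregnant animals overlapped that in cyclic animals, and the part of these cells in the KIT values was not tested.

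The anterior lobe markers POMC, GH1, PRL, LHB, FSHB, TSHB, CGA and POU1F1 were above background in all 8 channels. Of these 8 genes, 2 had an estimate above 0 and 6 below. At an unadjusted p under 0.05 there were 0 higher and 1 lower, beside 3.43% and 4.57% of all probes tested. That gene was LHB, at -0.42 ± 0.15 (unadjusted p = 0.0338, adjusted p = 0.605 by limma). On arrays 1 to 4 TSHB ran at -1.67, 4.48, -3.02 and -4.20, and GH1 at -0.29, 0.74, -2.50 and -0.083. Their part in the KIT ratios was not tested. Genes listed for the posterior and intermediate lobes were also found. OXT, the oxytocin gene, was above background in 8 channels, PCSK2, a prohormone convertase, in 7, GFAP, a glial filament gene, in 4 and AVP, the vasopressin gene, in 3. PAX7 and TBX19 of that list had no symbol on the array, and how specific the found genes are to those lobes was not tested. The 3 tested genes of the list summed to 3605 to 9653 in pregnant and 5092 to 10083 in cyclic animals. OXT stood at -0.36 ± 0.16 (unadjusted p = 0.0692 by limma). PCSK2 stood the other way at 0.40 ± 0.48, with 1.43, -0.55, -0.82 and 1.56 on arrays 1 to 4. GFAP stood at -0.065 ± 0.12. The anterior lobe label was thus met by its own markers, while RNA of the other lobes was not shown to be absent.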

How the data were processed

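Per the file headers, Agilent Feature Extraction 10.7.3.1 wrote for both colours the intensity of a spot and its surroundings as pixel medians, a processed intensity (background subtracted, detrended, dye normalized), and the log10 ratio of red over green. The authors' deposited value table holds log2 ratios, which for 43553 probes spotted once lay within 0.001 of the scanner's processed ratio, with the sign set to pregnant over cyclic as labelled. The medians of its columns were 0.150, -0.0102, 0.0650 and -0.0726, and no added centring was seen.

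The ratios came from limma 3.58.1 under R 4.3.3, with input read by data.table (1.17.8) and jsonlite 2.0.0. The correction for background was normexp (offset 50) on median intensities, with parameters from spots not marked as outliers, followed by loess within arrays (span 0.3, weight 0 for 1417 control spots). Spots marked as outliers were left out, spots of a probe averaged, and probes with 4 ratios that were well above background in at least 4 of 8 channels kept, 25138 of 43603. Levels per animal were scaled between arrays by Aquantile. Accessions were named by RefSeq (Sscrofa11.1), 6700 probes in all. The files name no genome build, so no coordinates are given, and the probes' bases were not used here. Limma's lmFit and eBayes fitted the group ratio beside a dye effect of each probe over all 25138 probes, with Benjamini-Hochberg adjustment. An array is a pair of animals by its construction, so the ratio is a paired value. The brightest probe stood for a listed gene. The text names all KIT and KITLG probes, the measured genes of the pathway and marker lists, and the 5 genes most like KIT with the 3 least like it. Members and lists were chosen with earlier results of these data known. The number of arrays limits the precision. The fit was tested on simulated data. No array lay apart in scan or slide, as all 4 were on 1 slide. RNA integrity numbers were 7.5 to 10, per the labels' protocols. One gene was left out of the signalling list and is not reported here.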

Additional observations from a re-analysis of the deposited data

Results flagged for a closer look

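In 3 of the 21 sets of 4 values examined (the KIT ratios and levels, and the ratios of the genes of lowest p in each list), 1 array lay far from the other arrays, where chance gives about 1 in 20. AKT1 was at -1.03 on array 2, with the other arrays between -0.23 and -0.15. SOCS6 was at 0.43 on array 4, with the others between -0.10 and -0.021. GATA2 was at -1.93 on array 1, with the others between -0.23 and -0.22. None of the KIT sets was among them. On the bright KIT probes the ratios of arrays 2 and 4 lay apart from those of arrays 1 and 3. A rule for 1 outlying array can hardly flag that layout, so nothing is read from it. The sets share the same 4 arrays and include genes picked by p, so the rate of 1 in 20 is a rough guide.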

How the results depend on the processing

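In 15 of 16 other ways of preparing the values KIT probe A_72_P165111 stayed above 0, between 0.26 and 0.69, and A_72_P441559 and A_72_P180731 in 14 of 15, between 0.13 and 0.59 and between 0.063 and 0.46. Several of these ways could not move the estimate. Without the dye term, with separate channels or with another choice of probes it equals the main one by construction. The authors' value table repeats the scanner's processed signals. These counts are therefore not read as independent support. Leaving out 1 array gave 0.45 to 0.69 for A_72_P165111, 0.46 to 0.59 for A_72_P441559 and 0.17 to 0.32 for A_72_P180731. With a single dye orientation they were -0.42, -0.46 and -0.095, and AKT1 was 0.23, because arrays 2 and 4 are turned. Within the Cy3 channels, added after the values were seen, they were 1.18, 1.20 and 0.46, and within the Cy5 channels -0.034, -0.15 and 0.039. A_72_P180731 was 0.063 with background parameters from all spots. In that setting the estimated background SD was 1770 in green and 1071 in red on array 2, and 6439 in red on array 4. The main setting had 1.89, 1.26 and 1.17 in the same channels. A_72_P180731 was 0.25 in the main fit, 0.35 with an offset of 10 and 0.23 with no background correction. It was 0.46 with the scanner's processed signals or the authors' value table. The cause of these differences was not tested.

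Probes at an adjusted p under 0.05 numbered 0 to 7 with 1 array left out (7 without array 1), 3 with a normexp offset of 10 and 4 with separate channels. At an unadjusted p under 0.05 there were 918 to 3235 with 1 array left out, lowest without array 1 and highest without array 4, and 958 without array 2, against 3549 with separate channels and 3127 without the filter, which leaves 43492 probes. Of the listed genes 0 to 1 had an unadjusted p under 0.05 with 1 array left out (0 without array 1 or 2), 4 with background parameters from all spots, 3 with a single dye orientation, 2 each with median centring, separate channels or no filter, and 0 with the scanner's processed signals or without the dye term. Single listed genes kept their direction and side of that threshold in 281 of 344 fits, and 18 of 23 changed sign in at least 1. Without the dye term, with separate channels or with another choice of probes their estimates equal the main ones by construction. Direction could not change in those fits, so the count of 281 is not read as independent support. For KITLG, below background, no ratio was computed under the alternatives. No replicate block applies, since each ratio is already within a pair. Signal over background limits KITLG and, less so, A_72_P180731.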

Other observations

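With each gene centred within each dye, a likeness added after the values were seen, ITGB5, an integrin subunit, ran most like KIT over the 8 channels at r = 0.98, with an estimate of 0.40 ± 0.10, followed by SLC1A3, ZAN, SQLE and SIX4 between 0.90 and 0.94. CRHR1, the receptor of corticotropin-releasing hormone, ran most against KIT at r = -0.99, with an estimate of -0.13 ± 0.10. SLC1A3, ZAN and SIX4 were among the 5 highest by both measures. These are descriptions of 8 channels searched over 2405 genes.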
